A study of Mus musculus with 4 samples.

Results

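The extracellular ATP and adenosine axis was described here by 10 genes, chosen by name and matched to the mouse gene identifiers of the count tables. All 10 were found among 48526 gene rows. They comprise the ATP-gated channel P2rx7, the surface enzymes Entpd1, Entpd2 and Nt5e, the adenosine-removing genes Ada and Slc29a1, and the adenosine receptors Adora1, Adora2a, Adora2b and Adora3. ATP leaves stressed and dying cells and acts as a danger signal on P2X channels and P2Y receptors. ENTPD enzymes strip its phosphates and NT5E turns the resulting AMP into adenosine, which dampens T cells and myeloid cells through its receptors. Uptake by SLC29A1 and deamination to inosine by ADA end the adenosine signal.

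Expression was measured by RNA sequencing in 4 libraries from liver tumours of C57BL/6 mice. Of these, 2 (AKK 1 and AKK 2) came from mice given the gut bacterium Akkermansia muciniphila. The other 2 (PBS 1 and PBS 2) came from mice given phosphate-buffered saline. The AKK mice received 5000000000 colony-forming units by mouth, starting 2 weeks before a methionine- and choline-deficient (MCD) diet and continuing through its 2 weeks. Every mouse of both groups had the MCD diet, a model of fatty liver, and then an orthotopic graft of luciferase-labelled RIL-175 cells, so that all tumours derive from a single mouse hepatoma line. Dosing stopped for 6 days after surgery and then resumed. The comparison asks how feeding the bacterium relates to the transcripts of the axis in the tumour. The labels call the libraries of a group biological replicates without naming the animals. The p-values below therefore weigh differences against sample-to-sample spread, which may be technical.

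The libraries held 48912489 to 59027227 reads on genes. In the AKK libraries the 7 hepatocyte genes summed to 468 and 130 CPM (reads scaled to a common library size with TMM factors), against 1.03 and 2.82 CPM in the PBS libraries. Albumin alone read 156 and 25.4 CPM in AKK tumours and 0.30 and 0.988 CPM in PBS tumours. Of the epithelial keratins, which many carcinomas express, Krt19 read 1752 and 1160 CPM in AKK 1 and AKK 2 and 788 and 1952 CPM in PBS 1 and PBS 2. Krt7 was low apart from PBS 2, at 2.48 and 5.00 CPM in AKK 1 and AKK 2 and at 1.07 and 126 CPM in PBS 1 and PBS 2. Skeletal muscle genes were high in PBS 1 only, with Acta1 at 0.0885 and 0.240 CPM in the AKK libraries against 83.7 and 2.29 CPM in PBS 1 and PBS 2. The part of these differences in the results below was not tested.

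All 10 genes passed the filter on low counts, and none passed the edgeR quasi-likelihood test at an adjusted p of 0.05, which called 1 gene in all (Fgb, 0.00572% of 17479). At an unadjusted p under 0.05 in edgeR, 2 of the 10 were lower in AKK tumours (P2rx7 and Entpd1) and 0 were higher, against 8.62% of all genes lower and 6.7% higher (15.3% in all). DESeq2 called the same 2 genes lower at an adjusted p under 0.05, where it called 3.04% of all genes lower and 2.08% higher (5.12% in all), and limma-voom called 0 of the 10 and 0% of all genes. The AKK libraries both lay below both PBS libraries in 3 genes (P2rx7, Entpd1 and Entpd2) and above both in 1 (Adora2a), against 24.7% and 26.7% of all genes (51.4% in all). The median log2 fold change (AKK minus PBS) of the 10 genes was -0.08, beside 0.02 for all genes tested.

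**Figure D1:**
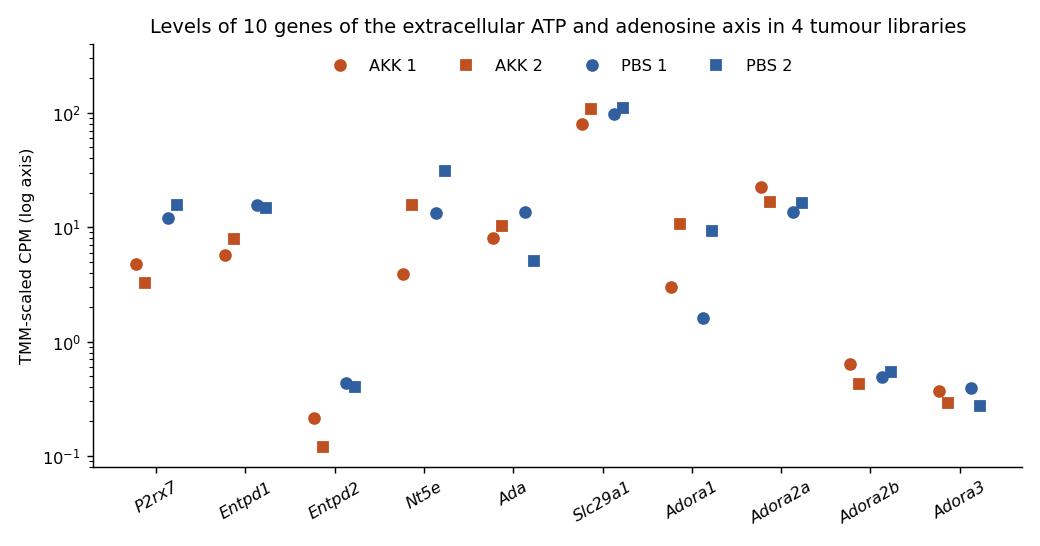
Level of each of the 10 genes in each library, as TMM-scaled CPM on a log axis. Points are single libraries, AKK (orange) left of PBS (blue), circles for replicate 1 and squares for replicate 2. P2rx7, Entpd1 and Entpd2 show both AKK points below both PBS points, while Nt5e and Adora1 spread widely inside each group.

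P2rx7 encodes a channel that opens at high ATP and is known for triggering the inflammasome in macrophages. It had 268 and 189 reads (4.74 and 3.24 CPM) in AKK 1 and AKK 2, against 636 and 745 reads (11.9 and 15.7 CPM) in PBS 1 and PBS 2. The groups did not overlap, and the lowest PBS library lay above the highest AKK library by more than the spread within either group. P2rx7 averaged 3.99 ± 1.06 CPM in AKK tumours and 13.8 ± 2.65 CPM in PBS tumours (SD, n = 2 each), which is a 3.46-fold higher level in PBS. In edgeR the log2 fold change was -1.79 (SE 0.35, adjusted p = 0.182), and the gene ranked 204 by p among the 17479 tested. DESeq2 gave an adjusted p of 9.98e-05 for the same difference, and limma-voom one of 0.236. With no filter on low counts, edgeR gave P2rx7 an adjusted p of 0.0196, and it then called 631 of 28148 genes.

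Entpd1 encodes CD39, which hydrolyses ATP and ADP to AMP and is found on endothelium, regulatory T cells and macrophages. It had 323 and 458 reads (5.71 and 7.84 CPM) in the AKK libraries, against 831 and 705 reads (15.6 and 14.8 CPM) in the PBS libraries. Both PBS values were close together, and both AKK values lay well under them. The gene averaged 6.78 ± 1.5 CPM in AKK tumours and 15.2 ± 0.532 CPM in PBS tumours (SD, n = 2 each). Its log2 fold change was -1.16 in edgeR (SE 0.29, unadjusted p = 0.00731, adjusted p = 0.211), and DESeq2 gave an adjusted p of 0.00982. With each library left out in turn, the log2 fold change of Entpd1 ran from -1.42 to -0.95 and that of P2rx7 from -2.09 to -1.55. Over all alternatives the adjusted p ran from 0.00982 to 0.615 for Entpd1 and from 9.98e-05 to 0.615 for P2rx7, both highest without AKK 1.

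The upstream sequences of P2rx7 and Entpd1 are shown because these were the 2 genes with separated groups and an unadjusted p under 0.05. RefSeq (GRCm38.p6) lists 2 transcript starts for each on the plus strand, and the 250 bases before each start lie at chr5:122643677-122643926 and chr5:122650133-122650382 for P2rx7 and at chr19:40612116-40612365 and chr19:40659520-40659769 for Entpd1. Capitals mark matches, on either strand, to TGACG (the core of the cAMP response element) or GGGCGG (the Sp1 box).
P2rx7 upstream start: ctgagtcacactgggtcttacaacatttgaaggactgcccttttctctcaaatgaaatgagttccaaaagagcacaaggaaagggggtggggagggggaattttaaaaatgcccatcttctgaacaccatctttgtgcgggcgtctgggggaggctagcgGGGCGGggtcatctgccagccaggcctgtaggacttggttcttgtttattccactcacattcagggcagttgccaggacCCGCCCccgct
P2rx7 downstream start: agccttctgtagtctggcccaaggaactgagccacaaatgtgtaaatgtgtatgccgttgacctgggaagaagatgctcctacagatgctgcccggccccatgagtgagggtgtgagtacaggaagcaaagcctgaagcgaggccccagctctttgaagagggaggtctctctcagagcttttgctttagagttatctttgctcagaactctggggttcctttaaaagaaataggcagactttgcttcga
Entpd1 upstream start: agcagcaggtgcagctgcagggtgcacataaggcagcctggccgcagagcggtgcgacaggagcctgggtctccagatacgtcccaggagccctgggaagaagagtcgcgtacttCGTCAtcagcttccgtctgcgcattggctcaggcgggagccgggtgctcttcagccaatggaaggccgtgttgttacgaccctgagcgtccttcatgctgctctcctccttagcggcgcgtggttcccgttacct
Entpd1 downstream start: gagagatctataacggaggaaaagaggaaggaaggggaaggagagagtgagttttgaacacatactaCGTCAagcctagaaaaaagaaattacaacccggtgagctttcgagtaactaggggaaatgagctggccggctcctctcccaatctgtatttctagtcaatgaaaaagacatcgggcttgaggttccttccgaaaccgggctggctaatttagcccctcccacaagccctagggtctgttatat
The TGACG core occurred at 1 position in each Entpd1 window and in neither P2rx7 window, and 17.8% of all 32851 RefSeq windows of this length hold it. GGGCGG occurred at 2 positions upstream of the first P2rx7 start, and 32.7% of all windows hold it. GAGGAA, the core of the PU.1 site of myeloid genes, matched at 2 positions in the downstream Entpd1 window and in none of the other 3, against 23.3% of all windows. The AP-1 motif TGANTCA matched at 1 position in the upstream P2rx7 window (6.75% of all windows). Of the hypoxia motifs, ACGTG matched none of the 4 windows (16.6% of all) and GCGTG matched the upstream Entpd1 window once (28.2% of all). These motifs do not overlap each other at the positions found. A match describes the letters only, and the counts do not tell which start a read came from.

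Entpd2, an enzyme that mainly converts ATP to ADP and is known from portal fibroblasts of the liver, was near the detection limit. It had 12 and 7 reads (0.212 and 0.120 CPM) in the AKK libraries, against 23 and 19 reads (0.431 and 0.400 CPM) in the PBS libraries. The AKK values were both lower, but the exact 95% Poisson interval of AKK 1 (0.110 to 0.371 CPM) overlapped that of PBS 2 (0.241 to 0.624 CPM). The interval of AKK 1 also overlapped that of PBS 1 (0.273 to 0.647 CPM), and the interval of AKK 2 (0.0482 to 0.247 CPM) overlapped that of PBS 2. Only the intervals of AKK 2 and PBS 1 lay apart. Such intervals cover counting error only. The log2 fold change was -1.31 (SE 0.60), with an adjusted p of 0.362 in edgeR. In GENCODE M21, 612 of the 2128 exon bases of Entpd2 are shared with Npdc1 on the same strand, and reads of an overlap are counted as ambiguous in tables of this layout.

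Nt5e encodes CD73, the enzyme that makes adenosine from AMP. Its reads numbered 221 and 920 (3.91 and 15.8 CPM) in AKK 1 and AKK 2, against 715 and 1484 (13.4 and 31.2 CPM) in PBS 1 and PBS 2. AKK 2 lay above PBS 1, so the groups overlapped, and the libraries differed 4.03-fold within AKK and 2.33-fold within PBS. Its mean was 9.83 ± 8.38 CPM in AKK tumours and 22.3 ± 12.6 CPM in PBS tumours (SD, n = 2 each). The difference of -1.18 on the log2 scale (SE 0.71) had an adjusted p of 0.454 in edgeR and 0.353 in DESeq2. It was -0.49 without AKK 1 and -0.47 without PBS 2, but -2.52 without AKK 2 and -1.66 without PBS 1.

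Ada, the adenosine deaminase, had 453 and 600 reads (8.02 and 10.3 CPM) in AKK tumours, against 721 and 241 reads (13.5 and 5.07 CPM) in PBS tumours. Both AKK libraries lay between the PBS libraries. The log2 fold change was -0.02 (SE 0.50, edgeR adjusted p = 0.986), and it was 0.85 without PBS 1, 0.14 without AKK 1 and -0.59 without PBS 2. Slc29a1, the equilibrative nucleoside transporter, was the most abundant of the 10 genes. It read 80.1 and 108 CPM in AKK 1 and AKK 2, against 96.9 and 110 CPM in PBS 1 and PBS 2, and the groups overlapped. Its log2 fold change was -0.13 with a SE of 0.22 and an edgeR adjusted p of 0.788. An antisense gene covers 6.86% of its exon bases in GENCODE M21, and counted without strand Slc29a1 kept 2981 and 4045 reads in AKK 1 and AKK 2, against 3199 and 3316 in PBS 1 and PBS 2, where 4528 and 6326, against 5168 and 5216, were counted by strand.

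Adora2a, the receptor through which adenosine restrains T cells, was the 1 gene with both AKK libraries above both PBS libraries. It had 1268 and 973 reads (22.4 and 16.7 CPM) in AKK 1 and AKK 2, against 728 and 771 reads (13.6 and 16.2 CPM) in PBS 1 and PBS 2. AKK 2 exceeded PBS 2 only narrowly. The gene averaged 19.5 ± 4.08 CPM in AKK tumours and 14.9 ± 1.81 CPM in PBS tumours (SD, n = 2 each). Its log2 fold change of 0.39 (SE 0.26) did not pass in edgeR (adjusted p = 0.490), and it was 0.16 without AKK 1.

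Adora1, an inhibitory receptor that lowers cAMP, varied widely within both groups. It had 171 and 627 reads (3.03 and 10.7 CPM) in AKK 1 and AKK 2, against 86 and 439 reads (1.61 and 9.23 CPM) in PBS 1 and PBS 2. The libraries differed 3.55-fold within AKK and 5.73-fold within PBS, and AKK 2 and PBS 2 were the high ones. The log2 fold change was 0.35 (SE 0.92, edgeR adjusted p = 0.872), and it was 2.07 without PBS 2, -0.42 without PBS 1 and -0.85 without AKK 2. On the opposite strand Adora1 had 0 and 5 reads in AKK tumours, against 90 and 4 in PBS tumours. GENCODE M21 places exons of the muscle gene Mybph there, over 20.1% of Adora1 exon bases, and Mybph had 0 and 0 reads in AKK tumours against 142 and 6 in PBS tumours. The strand-aware counts used here keep these genes apart.

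Adora2b, a receptor known to need high adenosine, had 36 and 25 reads (0.637 and 0.428 CPM) in AKK 1 and AKK 2, against 26 and 26 reads (0.487 and 0.547 CPM) in PBS 1 and PBS 2. Adora3, which couples like Adora1, had 21 and 17 reads (0.372 and 0.291 CPM) in AKK 1 and AKK 2, against 21 and 13 reads (0.394 and 0.273 CPM) in PBS 1 and PBS 2. The groups overlapped in both genes, and their log2 fold changes were 0.04 (SE 0.52) and -0.01 (SE 0.56). For Adora2b the exact 95% Poisson intervals overlapped between the highest library, AKK 1 (0.446 to 0.882 CPM), and the lowest, AKK 2 (0.277 to 0.632 CPM). This overlap lies within AKK and is no test of AKK against PBS. GENCODE M21 gives Adora3 779 of its 3729 exon bases in common with Tmigd3 on the same strand, which had 0 to 2 reads per library.

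**Figure D2:**
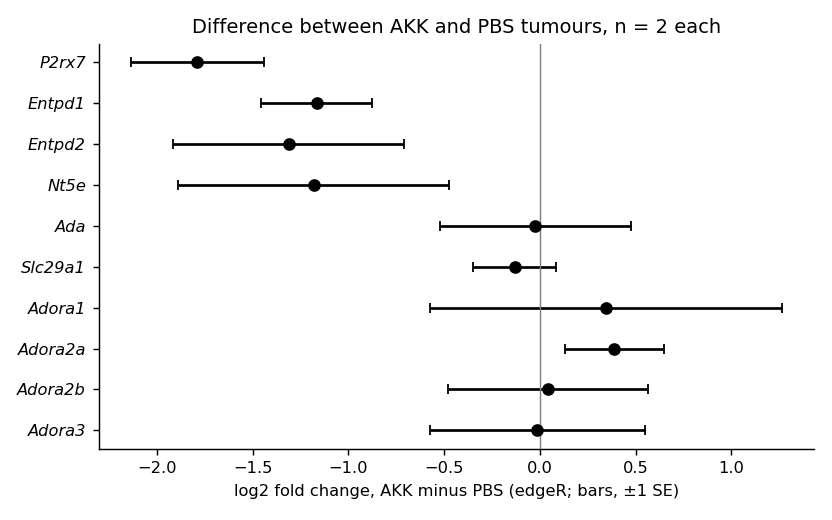
Log2 fold change (AKK minus PBS) of the 10 genes from edgeR, with bars of ±1 SE and n = 2 libraries per group. P2rx7 (-1.79) and Entpd1 (-1.16) lie farthest below 0 relative to their SE, and the adenosine receptors lie between -0.01 and 0.39.

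Per kilobase of exon (GENCODE M21 lengths), the mean level over the 4 libraries was highest for Slc29a1, at 24.6 CPM per kb with a range of 20.0 to 27.4. Adora2a (5.63), Ada (4.60), Entpd1 (1.97), Nt5e (1.87), P2rx7 (1.49) and Adora1 (1.06 CPM per kb) followed. In this middle stretch each gene's range over the libraries overlapped that of the next, so the order among neighbours was not fixed. Adora2b (0.284), Entpd2 (0.137) and Adora3 (0.0891 CPM per kb) were lowest. The range of Slc29a1 did not reach that of Adora2a, and the range of Adora2b did not reach that of Entpd2. Among the adenosine receptors, Adora2a thus had the highest level per length in each library. These lengths count all exon bases, also those that Entpd2 shares with Npdc1 and Adora3 with Tmigd3. Reads there are counted as ambiguous, so the levels of Entpd2 and Adora3 per kb may be understated. The separation of Adora2b from Entpd2 need not hold over the countable bases alone.

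Ratios of reads within a library do not depend on scaling. Nt5e reads were 0.488 and 1.53 times those of Ada in AKK 1 and AKK 2, against 0.992 and 6.16 times in PBS 1 and PBS 2. Entpd1 reads were 1.46 and 0.498 times those of Nt5e in AKK 1 and AKK 2, against 1.16 and 0.475 times in PBS 1 and PBS 2. For this pair AKK 1 lay closer to PBS 1, and AKK 2 closer to PBS 2, than to the other library of its group. The exact two-sided permutation test over the 4 libraries gave p = 0.667 for both ratios (log2 difference -1.51 for Nt5e to Ada and 0.20 for Entpd1 to Nt5e), and 0.333 is the smallest p that 2 against 2 allow. Ada to Slc29a1 was 0.1 and 0.0948 in AKK tumours, against 0.140 and 0.0462 in PBS tumours (log2 difference 0.28, exact p = 1).

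Endothelial cells and macrophages are known to carry Entpd1, and macrophages P2rx7, so markers of both were read beside these genes. In bulk tissue fewer cells of a type and less RNA per cell cannot be told apart. All 7 endothelial markers lay lower in both AKK libraries, as did 24.7% of all genes, with a summed level of 27.2 and 30.4 CPM in AKK tumours against 91.5 and 66.3 CPM in PBS tumours. Pecam1 read 10.3 and 10.6 CPM in AKK tumours and 28.6 and 19.9 CPM in PBS tumours. Of 8 macrophage markers 7 lay lower in both AKK libraries, and their sum was 601 and 611 CPM in AKK tumours against 888 and 693 CPM in PBS tumours. Adgre1 read 2.53 and 4.69 CPM in AKK tumours and 10.2 and 6.06 CPM in PBS tumours. All 5 Kupffer cell markers (macrophages native to liver sinusoids) lay higher in both AKK libraries, as did 26.7% of all genes, with a sum of 18.2 and 2.38 CPM in AKK tumours against 0.337 and 0.0210 CPM in PBS tumours. In PBS 2 the markers Clec4f, Cd5l, Timd4 and Marco were at 0. Of the 4 monocyte and neutrophil markers that passed the filter, 3 lay higher in both AKK libraries, and the list summed to 16.7 and 9.64 CPM in AKK tumours against 8.38 and 5.38 CPM in PBS tumours, with Ly6g at 0 in every library. None of the 10 genes is in these lists, and no endothelial or macrophage marker was at 0 in a library. The 6 T cell markers summed to 12.1 and 7.36 CPM in AKK tumours against 3.67 and 6.94 CPM in PBS tumours.

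Set against the mean log2 CPM of the endothelial markers in the same library, Entpd1 was 1.24 and 1.46 above it in AKK 1 and AKK 2, and 0.70 and 1.08 above it in PBS 1 and PBS 2. Relative to the mean of these markers Entpd1 was thus not lower in AKK. The markers differed widely in log2 fold change, from -3.44 (Vwf) to -0.57 (Emcn), beside -1.16 for Entpd1. Kdr (-0.84) and Emcn fell less than Entpd1, and the rest fell more. Set against the macrophage markers, Entpd1 stood at -2.60 and -2.34 in AKK tumours and at -2.0 and -1.68 in PBS tumours, lower in both AKK libraries. Relative to the T cell markers Entpd1 was also lower in both, at 1.76 and 3.18 in AKK tumours against 4.76 and 4.31 in PBS tumours. P2rx7 relative to the macrophage markers stood at -2.86 and -3.61 in AKK tumours and at -2.38 and -1.60 in PBS tumours, again lower in both. Relative to the endothelial markers P2rx7 overlapped, at 0.97 and 0.20 in AKK tumours against 0.31 and 1.16 in PBS tumours. Adora2a relative to the T cell markers stood at 3.72 and 4.26 in AKK tumours and at 4.57 and 4.44 in PBS tumours. It was thus lower there although its CPM was higher. Relative to the macrophage markers Adora2a was higher in AKK, at -0.63 and -1.26 against -2.19 and -1.55 in PBS. It was also higher relative to the endothelial markers, at 3.20 and 2.55 against 0.51 and 1.21. Its direction thus depended on the list. These offsets are on the log2 scale and carry no test, and the part of these cell types in the lower Entpd1 and P2rx7 was not tested.

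**Figure D3:**
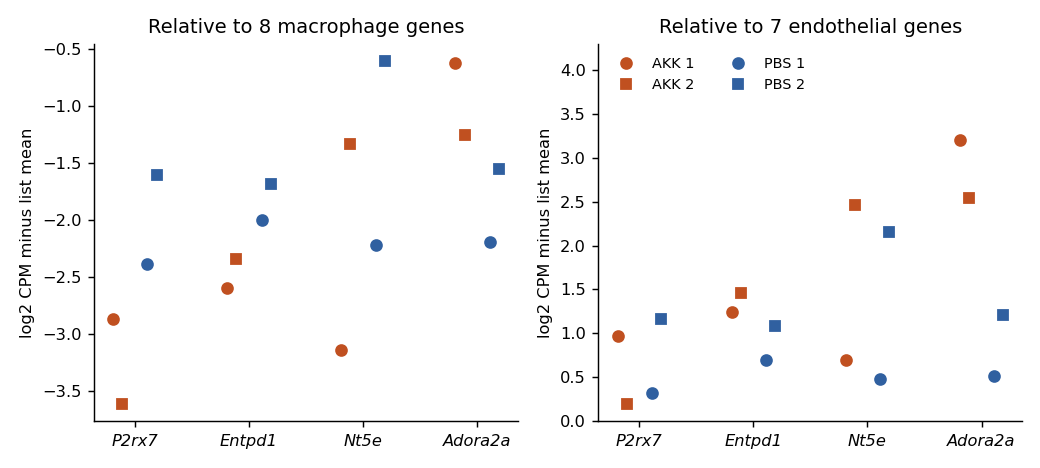
Log2 CPM of P2rx7, Entpd1, Nt5e and Adora2a minus the mean log2 CPM of 8 macrophage markers (left) and 7 endothelial markers (right) in the same library. Points are libraries, AKK left of PBS. Entpd1 in AKK lies below PBS relative to macrophage markers and above it relative to endothelial markers.

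Other genes of purinergic signalling were read from lists by role, of which 69 of 72 symbols had a row and 58 passed the filter. In edgeR 0 of the 58 passed at an adjusted p of 0.05. At an unadjusted p under 0.05, 2 were higher and 6 lower in AKK tumours, beside 6.7% and 8.62% of all genes. DESeq2 called 2 higher and 1 lower, beside 2.08% and 3.04% of all genes. Their median log2 fold change was -0.05. In 12 genes both AKK libraries lay above both PBS libraries and in 16 below, of 58, beside 26.7% and 24.7% of all genes.

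The list of other ecto-nucleotide enzymes kept 14 genes, not all of which act at the cell surface. Among them, edgeR gave an unadjusted p under 0.05 to 1 higher gene and 3 lower genes, beside 6.7% and 8.62% of all genes. Their median log2 fold change was -0.37, which is therefore no measure of nucleotide breakdown outside the cell. Enpp4, a phosphodiesterase of endothelium that releases ADP from diadenosine polyphosphates, read 1.80 and 2.19 CPM in AKK tumours and 7.39 and 7.67 CPM in PBS tumours (log2 fold change -1.91, edgeR adjusted p = 0.182, DESeq2 adjusted p = 1.78e-05). Cd38, which consumes NAD and opens another route to AMP, read 9.84 and 13.4 CPM in AKK tumours and 29.5 and 16.7 CPM in PBS tumours (-0.99, edgeR adjusted p = 0.288). Entpd3, a relative of Entpd1, had low levels, at 0.230 and 0.274 CPM in AKK tumours against 1.44 and 0.631 CPM in PBS tumours (-2.03, edgeR adjusted p = 0.253). Alpl, an alkaline phosphatase that can also take AMP to adenosine, lay the other way, at 1.68 and 0.531 CPM in AKK tumours against 0.150 and 0.105 CPM in PBS tumours (3.09, edgeR adjusted p = 0.213, DESeq2 adjusted p = 0.0427).

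Of the 5 other P2X genes kept, 0 had an unadjusted p under 0.05 in edgeR. All 5 had a positive log2 fold change (median 0.31), as did 9046 of 17479 genes tested. P2rx1, P2rx3, P2rx5 and P2rx6 had only 2 to 29 reads per library, so their directions are weakly measured. P2rx4, a channel related to P2rx7 and expressed in macrophages too, read 54.6 and 52.4 CPM in AKK tumours and 42.2 and 44.4 CPM in PBS tumours (log2 fold change 0.31, edgeR adjusted p = 0.437). Its groups did not overlap, in the direction opposite to P2rx7. Of 7 P2Y genes 0 had an unadjusted p under 0.05, and the lowest p belonged to P2ry12, the ADP receptor of platelets and microglia, at 1.15 and 1.64 CPM in AKK tumours against 3.62 and 2.33 CPM in PBS tumours (-1.09, edgeR adjusted p = 0.347).

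The 8 inflammasome genes linked to P2rx7 had a median log2 fold change of -0.12. At an unadjusted p under 0.05 in edgeR, 1 of them was lower, the NLRP3 partner Nek7, beside 8.62% of all genes. Nek7 read 73.2 and 102 CPM in AKK tumours and 131 and 127 CPM in PBS tumours (log2 fold change -0.56, edgeR adjusted p = 0.316). Il1b read 17 and 14.4 CPM in AKK tumours and 13.4 and 4.90 CPM in PBS tumours, with both AKK libraries above both PBS libraries (0.78, edgeR adjusted p = 0.469).

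Of 7 genes of ATP release, Gjb2, a connexin of hepatocytes, had the smallest p. It read 4.39 and 1.42 CPM in AKK tumours and 0.131 and 0.231 CPM in PBS tumours (log2 fold change 3.99, edgeR adjusted p = 0.182, DESeq2 adjusted p = 8.88e-05), beside the hepatocyte genes given above. Lrrc8a, a subunit of the volume-regulated anion channel, read 41.7 and 38.3 CPM in AKK tumours and 32.8 and 27.6 CPM in PBS tumours (0.41, edgeR adjusted p = 0.375). Of all genes, 8.62% were lower at an unadjusted p under 0.05 in edgeR. Among 14 genes listed mostly for intracellular purine salvage and breakdown, the lower ones at that p numbered 2. They were the AMP deaminase Ampd3, at 1.15 and 0.959 CPM in AKK tumours against 2.46 and 2.88 CPM in PBS tumours (-1.34, edgeR adjusted p = 0.272), and the xanthine oxidoreductase Xdh, at 9.36 and 14.2 CPM against 16.7 and 47.0 CPM (-1.43, edgeR adjusted p = 0.292). The adenosine kinase Adk read 18.4 and 15.1 CPM in AKK tumours and 13.7 and 16.5 CPM in PBS tumours, and the groups overlapped. Of 3 other nucleoside transporters, Slc29a2 had the smallest p, at 17.4 and 17.2 CPM in AKK tumours against 12.5 and 10.6 CPM in PBS tumours (0.58, edgeR adjusted p = 0.330).

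**Figure D4:**
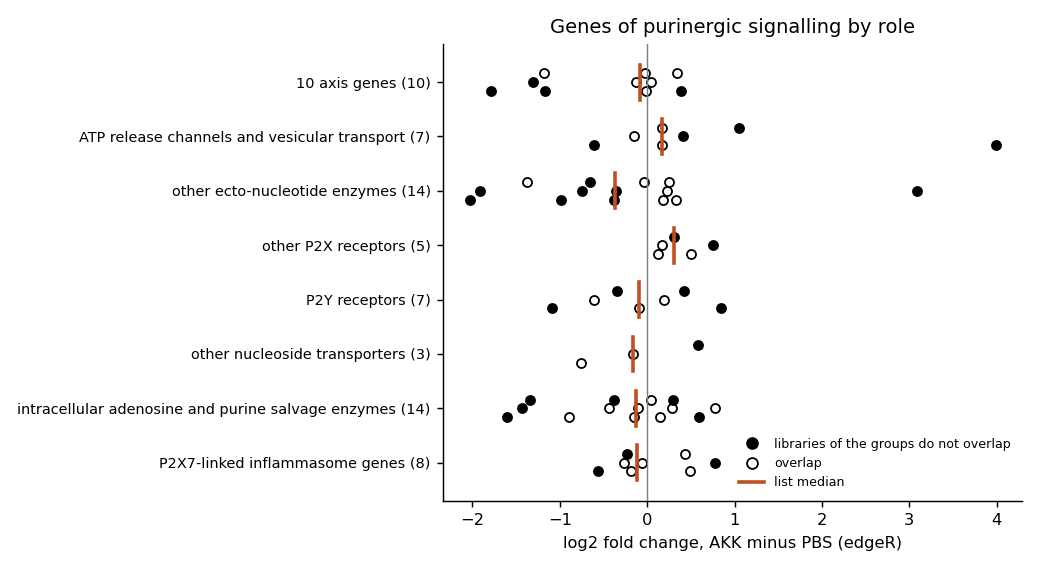
Log2 fold change (AKK minus PBS, edgeR) of the 10 axis genes and of 58 other genes of purinergic signalling by role, with the number of genes in parentheses. Filled points mark genes whose AKK and PBS libraries do not overlap, and orange bars mark list medians, which run from -0.37 (other ecto-nucleotide enzymes) to 0.31 (other P2X receptors).

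At an unadjusted p under 0.05 in edgeR, 1 of 12 hypoxia-induced genes was higher and 1 lower, beside 6.7% and 8.62% of all genes. The higher one was Car9 (log2 fold change 1.56) and the lower one Pdk1 (-0.67). The 12 genes had a median log2 fold change of -0.02. Their summed level was 6806 and 5517 CPM in AKK 1 and AKK 2, against 5154 and 8087 CPM in PBS 1 and PBS 2. Nt5e was lowest in AKK 1 and highest in PBS 2, and the sum was lowest in PBS 1 and highest in PBS 2. The part of hypoxia in the Nt5e values was not tested.

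By pattern over the 4 libraries, the protein-coding genes closest to P2rx7 were Hist1h1d, Kif5a and Egr1, with root-mean-square distances of 0.135, 0.185 and 0.190 log2 units after centring. Closest to Entpd1 were Ralgapb, Plxna2 and Jmjd1c, at 0.0220, 0.0232 and 0.0380. Closest to Nt5e were Scel, Ano1 and Garem1, at 0.128, 0.196 and 0.246. These were taken from 11038 candidates, so close matches over 4 libraries are a description only. Within the 10 genes, Adora2a and Adora2b were the closest pair (0.187) and Adora1 and P2rx7 the farthest (1.62).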

How the data were processed

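RNA from mouse liver tumours was sequenced in 4 libraries as pairs of 151 bp reads, per the labels' protocols. The authors deposited unnormalized read counts for each gene, in 3 columns by strand as STAR writes them. STAR 2.5.2 and RSEM 1.2.31 are named per the submitters' processing notes, and build and annotation were not given in the sources used here. Reads shared by several genes or places are not in these counts, which lowers genes with overlapping or near-identical neighbours. The own-strand column was used, which held 95.37 to 96.22% of reads assigned by strand. Summary rows that name no gene (27.61 to 31.43% of all reads) were left out. Symbols were matched by identifier for 48058 of 48526 genes. Each library had 48912489 to 59027227 counts, and 3 reads were worth 0.0514 to 0.0631 CPM.

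AKK and PBS were compared over 17479 genes with edgeR 4.0.16 (R 4.3.3, glmQLFit in its legacy form, two-sided glmQLFTest, TMM scaling, filterByExpr, design with group alone), adjusted by Benjamini-Hochberg over all of them with a threshold of 0.05. SE came from the F statistic. DESeq2 1.42.0 and limma-voom (limma 3.58.1), other scalings, filters, the unstranded counts, the replicate number as a block and each library left out were alternatives. The fits were tested on simulated data. RefSeq promoter windows (GRCm38.p6) were found for 9 of the 10 genes, and exon lengths came from GENCODE M21 (GRCm38), where 8 of 10 identifiers had the same version.

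The members and lists were chosen with earlier results of these data known. Named genes were all 10 members, the genes of each pathway list past the threshold or else the 2 with the smallest p, the first 3 markers of each cell type list and the 3 genes closest in pattern to each member. Not all are printed. Fgb, Adk, Entpd3, Cd38, Timd4, Marco, Ly6g, Mybph, Npdc1 and Tmigd3 fall outside that rule. So do Kdr, Emcn, P2rx1, P2rx3 and P2rx5. All of these were named after their values were seen.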

Additional observations from a re-analysis of the deposited data

How the results depend on the processing

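The count of genes called over all genes was 1 in the edgeR test as reported. It was 3 with upper-quartile scaling, 631 with no filter on low counts, 878 with DESeq2, 0 with limma-voom, 4 with the edgeR 4 form of the test, 3 at an adjusted p of 0.1, and 0 to 324 with 1 library left out (0 without AKK 1 or AKK 2, 279 without PBS 1, 324 without PBS 2). With the replicate number as a block it was 209. Across all genes the deviations of same-numbered libraries had a correlation of -0.0153, which cannot tell whether single genes are paired by number. The block changed no call among the 10 genes, with P2rx7 at -1.80 (edgeR adjusted p = 0.0994) and Nt5e at -1.38 (edgeR adjusted p = 0.115). Of the 10 genes, 0 were called in the test as reported, 1 with no filter on low counts (P2rx7, -1.80) and 2 with DESeq2 (P2rx7 -1.81, Entpd1 -1.18), and 0 under each other alternative. Of the other pathway genes, 0 were called as reported, 3 with no filter, 3 with DESeq2 and 0 to 1 with 1 library left out, the 1 being without PBS 1. With no filter, edgeR tested 28148 genes and 67 of the other pathway genes, so the 631, 1 and 3 calls there have these larger bases. Directions near 0 turned. Ada was 0.019 with upper-quartile scaling, 0.11 with limma-voom and 0.13 with the block, against -0.02 as reported, and -0.59 to 0.85 with 1 library left out. Adora3 was 0.0451 with upper-quartile scaling and 0.0004 with the block, and -0.28 to 0.27 with 1 library left out. With 1 library left out, Adora1 ran from -0.85 to 2.07, Adora2b from -0.27 to 0.29 and Slc29a1 from -0.37 to 0.0729. P2rx7, Entpd1, Entpd2, Nt5e and Adora2a kept their direction under every alternative run for them. Adora2b, Adora3 and Entpd2 could not be fitted with the filter of 1 CPM in 2 libraries. The cause of these shifts was not tested. Leaving out a library leaves 1 in that group, whose spread is then taken from the other group, and the filter kept 18207 to 18779 genes. With 1 library left out, the log2 ratio difference ran from -0.58 to 0.98 for Entpd1 to Nt5e, from -2.83 to -0.20 for Nt5e to Ada and from -0.52 to 1.08 for Ada to Slc29a1. Depth limits Entpd2, Adora2b and Adora3, which had 7 to 36 reads per library.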
